A study of Mus musculus with 6 samples.

Results

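Dcx, Tubb3, Map2, Mapt, Stmn2, Rbfox3, Nefl, Nefm, Gap43 and Elavl3 are 10 genes that neurons use, at differing stages, as they migrate, extend an axon and mature. They were picked by their mouse symbols and not by a rule on their level, though earlier results of these data were known by then. All 10 were found among the 26852 genes of the deposited table. Whole midbrains dissected at E14.5 were sequenced as 3 Lmx1b cKO libraries (Lmx1b fl/fl;Pitx3-Cre) and 3 control libraries (Lmx1b wt/wt;Pitx3-Cre), all on a C57Bl/6 background (C57BL/6J in the study's methods). Each library held pooled RNA of 2 embryos, and the embryos came from 4 litters. Both genotypes carry Pitx3-Cre, an insertion that takes the place of 1 Pitx3 allele. Cre acts only in Pitx3-expressing dopaminergic neurons and only from about a day before dissection, whereas the dissected tissue also holds all other midbrain cells. The study asked which genes depend on Lmx1b in these neurons after the isthmic organizer has formed, and the genes described here give the general neuronal background of that comparison.

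A newborn neuron builds its axon and dendrites on microtubules, which are polymers of α- and β-tubulin. Tubb3 is the β-tubulin that is found almost only in neurons, Dcx, Map2 and Mapt bind along the microtubule, and Stmn2 binds free tubulin and favours disassembly. Neurofilaments, built from subunits such as Nefl and Nefm, fill the axon later, Gap43 is attached to the membrane of the growth cone, and Elavl3 and Rbfox3 are RNA-binding proteins that act on neuronal transcripts. The stages of maturation differ among them, since Dcx marks young migrating neurons and Rbfox3, the NeuN antigen, marks neurons that have left the cycle and settled.

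The deposited values are the mean normalized counts of each genotype, that is, read counts divided by a size factor per library. Because read counts are whole numbers, the counts of the single libraries could be worked out from the printed means, and a single answer was found for 26844 genes, all 10 genes included. The libraries obtained this way have a genotype but no sample number, and they are called a, b and c in order of falling size factor. The 6 libraries hold 28935537 to 35017440 recovered counts. By in situ hybridization at E14.5, the study saw Lmx1b signal lost in the dopaminergic area of cKO embryos and kept in diencephalon and hindbrain. In counts of the whole tissue, Lmx1b itself does not check the labels. It reached 1257, 1401 and 1455 normalized counts in cKO libraries a to c, against 1368, 1352 and 1474 in control libraries a to c (log2 fold change −0.03, SE 0.07, adjusted p = 1.00 in limma). Engrailed and dopaminergic transcripts were present in every library, as the label midbrain requires. Markers of bone and mesenchyme stood apart in cKO library c, where their summed level was 14316 normalized counts, against 2452 in cKO library a and 876 to 1014 in the other 4 libraries, and all 10 of these markers were highest in cKO library c. Cycling progenitor markers summed to 7337 in control library a and to 4142 to 6091 elsewhere.

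No difference between cKO and control was detected for any of the 10 genes. The fitted changes ran from −5.79% for Nefl to 3.48% for Elavl3, 4 genes were slightly higher and 6 slightly lower in the cKO, and the median log2 fold change was −0.0025, beside 0.0012 over all 17170 genes tested. At an unadjusted p under 0.05, 0 of the 10 genes were called in limma, where 2.75% of all tested genes were. Of the 4278 tested genes with a mean of at least 2000 normalized counts, as all 10 have, 60 were called. At an adjusted p under 0.05, 0 of the 10 were called, and so were 0% of all tested genes. The 3 cKO libraries lay entirely above or below the 3 controls for 0 of the 10 genes, beside 7.56% of all tested genes. In the sum over the 10 genes, the cKO held 358269 ± 12350 normalized counts and the control 354447 ± 7970 (SD, n = 3 each), with libraries from 349360 to 372370 in the former and from 347738 to 363257 in the latter, so the groups overlapped. This is 1.14% ± 0.033 of all recovered normalized counts for the cKO, against 1.13% ± 0.017 for the control. In bulk tissue, fewer neurons and less RNA per neuron cannot be told apart.

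**Figure D1:**
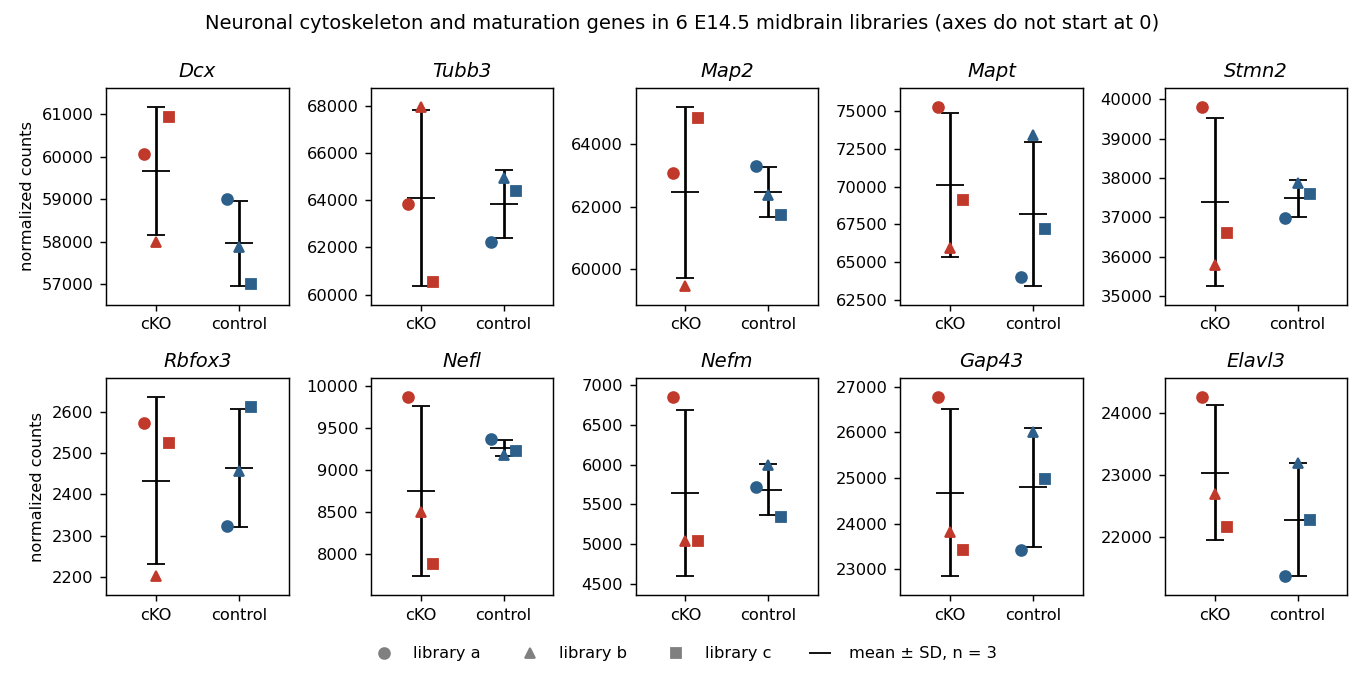
Normalized counts (y axis, not starting at 0) of the 10 genes in the 3 cKO and 3 control libraries, with symbols for libraries a, b and c and bars for the mean ± SD. The groups overlap in every panel, the 3 Nefl controls sit between 9183 and 9371, and the circle of cKO library a is the highest point for 6 genes.

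**Figure D2:**
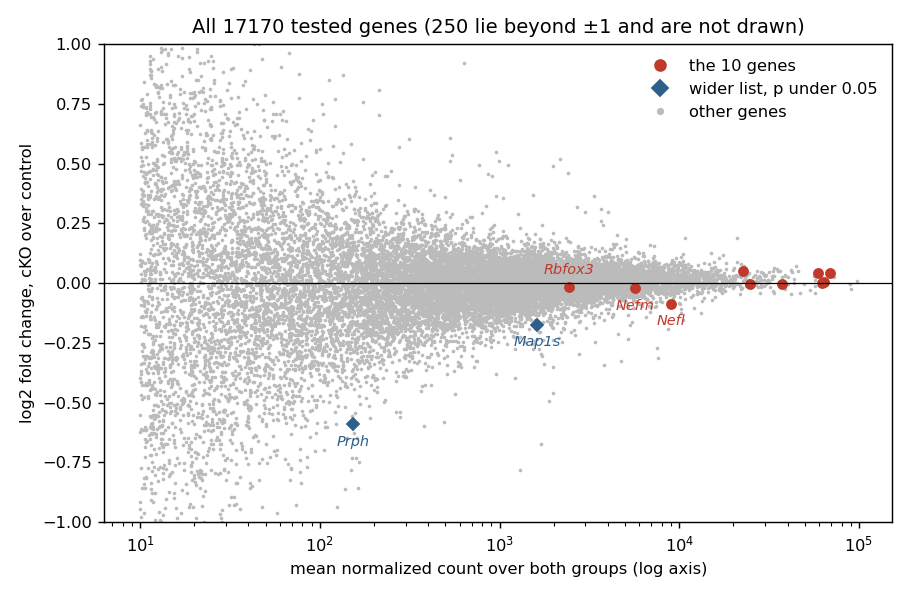
Log2 fold change, cKO over control (y axis), against the mean normalized count on a log axis (x axis) for all 17170 tested genes, of which 250 lie beyond ±1 and are not drawn. The 10 genes, in red, lie near 0, with means from 2449 for Rbfox3 to 69157 for Mapt, and Prph and Map1s, in blue, are the 2 genes of the wider list with an unadjusted p under 0.05.

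Among the microtubule genes, Tubb3 was the first to be checked for its sequence, since β-tubulins are a family of close relatives and their reads can be confused. The last 75 coding bases of Tubb3 and of 5 other β-tubulins are shown because the family differs more here than over the whole coding sequence, and they encode the acidic tail of the protein. Capitals mark bases that lie in no run of 12 bases shared with the Tubb3 coding sequence, or, in Tubb3 itself, with any of the 5 others, and sequences are those of GENCODE transcripts on GRCm38.
Tubb3 (chr8:123421608-123421682, + strand): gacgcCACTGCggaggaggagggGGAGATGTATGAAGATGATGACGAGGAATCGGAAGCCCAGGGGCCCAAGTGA
Tubb2a (chr13:34074468-34074542, − strand): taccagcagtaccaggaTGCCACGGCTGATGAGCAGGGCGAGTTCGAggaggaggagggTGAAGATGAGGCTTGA
Tubb2b (chr13:34127471-34127545, − strand): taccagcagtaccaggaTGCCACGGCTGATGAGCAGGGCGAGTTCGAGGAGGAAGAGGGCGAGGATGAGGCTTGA
Tubb4a (chr17:57080690-57080764, − strand): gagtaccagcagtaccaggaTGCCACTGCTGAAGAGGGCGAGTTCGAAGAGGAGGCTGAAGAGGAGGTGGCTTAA
Tubb4b (chr2:25222308-25222382, − strand): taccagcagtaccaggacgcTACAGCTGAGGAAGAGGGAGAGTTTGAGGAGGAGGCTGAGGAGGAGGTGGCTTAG
Tubb5 (chr17:35834982-35835056, − strand): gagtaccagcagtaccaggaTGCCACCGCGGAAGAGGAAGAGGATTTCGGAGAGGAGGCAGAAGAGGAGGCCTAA
Each stretch lies within 1 exon. Over the whole coding sequence, the 5 relatives share 82.3% to 84.5% of aligned bases with Tubb3, and over these 75 bases 68.3% to 71.9%. The longest run shared with Tubb3 is 45 bases, in Tubb2a and Tubb2b, and 464 of the 1353 coding bases of Tubb3 lie in no shared run of 12 bases. How reads that matched several tubulins were counted is not given in the sources used here.

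Tubb3 (ENSMUSG00000062380, chromosome 8, 123411424 to 123422015) reached 63824, 67959 and 60520 normalized counts in cKO libraries a to c, against 62215, 64943 and 64372 in control libraries a to c. The highest and the lowest of all 6 values were both cKO libraries, and the control values fell between them. The log2 fold change was 0.00 (SE 0.04), with a 95% interval of the difference from −5.97% to 7.09%. Its close relative Tubb2b reached 97423, 99057 and 95472 normalized counts in cKO libraries, against 93128, 99745 and 97069 in controls, with a log2 fold change of 0.01 (SE 0.03). For Tubb2a these were 29322, 27391 and 26303 against 26959, 29937 and 28554, with a log2 fold change of −0.04 (SE 0.05), so both relatives overlapped between the groups as well. Tuba1a, the α-tubulin of growing neurons and the most abundant tubulin in the table, has only its deposited means, 137022 (cKO) and 136643 (control), since its counts were too high for the search. Of the 10 other tubulin genes tested, 3 had log2 fold changes above 0 and 7 below, and 0 had an unadjusted p under 0.05, beside 2.75% of all tested genes.

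Dcx (ENSMUSG00000031285, chromosome X, 143855842 to 143933311), doublecortin, reached 60075, 57992 and 60934 normalized counts in cKO libraries a to c, against 59011, 57883 and 57008 in control libraries a to c. Libraries a and c of the cKO were above all controls, and cKO library b fell inside the control range. Its log2 fold change was 0.04 (SE 0.03), the narrowest error of the 10, with an interval from −2.29% to 8.35% (p = 0.251 in limma, exact permutation p = 0.2). The doublecortin-like kinases Dclk1 and Dclk2, which share its microtubule-binding domain, had log2 fold changes of 0.01 (SE 0.06) and −0.02 (SE 0.04).

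Map2 (ENSMUSG00000015222, chromosome 1, 66175273 to 66442583), which marks dendrites, had 63071, 59450 and 64857 normalized counts in cKO libraries, against 63313, 62357 and 61728 in controls. As for Tubb3, the controls sat inside the cKO range, and the log2 fold change was −0.00 (SE 0.04, interval −5.66% to 5.80%). Mapt (ENSMUSG00000018411, chromosome 11, 104231390 to 104332090) encodes tau, the axonal counterpart, and had the highest level of the 10 before division by length. It had 75266, 65933 and 69141 normalized counts in cKO libraries, against 64028, 73363 and 67209 in controls, so its 6 values alternated between the groups and spread over 1.18-fold. The log2 fold change of Mapt was 0.04 (SE 0.06, interval −5.48% to 12.1%). Map1b, the microtubule-associated protein with the highest mean in the list, has only its deposited means, 111964 (cKO) and 109942 (control), and Map1a and Map4 had log2 fold changes of 0.05 (SE 0.11) and 0.05 (SE 0.05).

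Stmn2 (ENSMUSG00000027500, chromosome 3, 8509360 to 8561606) had 39812, 35774 and 36588 normalized counts in cKO libraries, against 36969, 37882 and 37596 in controls. The 3 controls differed by less than the 3 cKO libraries, with a coefficient of variation of 1.25% against 5.71%. Its log2 fold change was −0.00 (SE 0.04, interval −6.58% to 6.49%). Stmn1, the relative that cycling cells also use, varied far more among libraries of 1 genotype, with 19930, 12605 and 14494 normalized counts in cKO libraries, against 19015, 11621 and 15408 in controls (log2 fold change 0.03, SE 0.17). Stmn3 and Stmn4 had log2 fold changes of 0.00 (SE 0.05) and −0.03 (SE 0.05).

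Nefl and Nefm, the light and medium neurofilament subunits, were the genes with the widest spread, and that spread came from the cKO libraries. Nefl (ENSMUSG00000022055, chromosome 14, 68083863 to 68089095) had 9870, 8494 and 7883 normalized counts in cKO libraries, against 9371, 9183 and 9230 in controls. The controls agreed to a coefficient of variation of 1.06%, about that of counting alone (1.05%), while the cKO libraries varied by 11.6%, with library a above and libraries b and c below every control. The log2 fold change was −0.09 (SE 0.07, interval −15.1% to 4.58%, p = 0.236 in limma, exact permutation p = 0.4). Nefm (ENSMUSG00000022054, chromosome 14, 68082590 to 68124846) had 6849, 5037 and 5037 normalized counts in cKO libraries, against 5720, 5990 and 5345 in controls. Again cKO library a was above every control and libraries b and c were below, with a coefficient of variation of 18.5% against 5.70%. The fitted difference was −0.02 (SE 0.10, interval −15.5% to 14.8%).

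The neurofilament values depended on which cKO library was left out. Without cKO library a, the log2 fold change became −0.18 for Nefl (SE 0.05, interval −18.3% to −4.46%, unadjusted p = 0.00505 in limma) and −0.17 for Nefm (SE 0.06, interval −19.1% to −2.90%, unadjusted p = 0.0141 in limma). The adjusted p was 1.00 for both, and 2.81% of 17168 genes had an unadjusted p under 0.05 in that fit of 2 cKO against 3 control libraries. Without cKO library c, in which the bone and mesenchyme markers stood apart, the log2 fold change of Nefl was −0.01, and with the level of those markers as a covariate it was −0.02. Leaving out any library other than cKO library a gave neither gene an unadjusted p under 0.05, and Nefm changed direction without cKO library b (0.05) or c (0.05) or control library b (0.02). Library a of the cKO was also the one with the lowest radial glia marker sum, 38787 normalized counts against 44680 to 49306 in the other 5 libraries, and the part of this in the neurofilament values was not tested. The 2 genes are neighbours on opposite strands of chromosome 14, and 1108 exon bases of Nefm, 32.8% of the exon bases of Nefl, are annotated to both. Whether the counting used the strand is not given in the sources used here, so reads of the shared stretch cannot be assigned.

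Of the remaining intermediate filaments, Ina, the α-internexin of young axons, had 41139, 40887 and 39179 normalized counts in cKO libraries, against 38273, 39969 and 41141 in controls (log2 fold change 0.02, SE 0.04), and Nefh, the heavy subunit that appears late, had 343, 304 and 316 against 252, 346 and 270 (0.17, SE 0.14). Prph, peripherin, which belongs to peripheral and cranial motor neurons, had 134, 114 and 119 normalized counts in cKO libraries, against 222, 178 and 154 in controls. The groups did not overlap, and the log2 fold change was −0.59 (SE 0.19, unadjusted p = 0.00924, adjusted p = 1.00 in limma). Of the 7 markers of cranial motor and sensory neurons tested, a list that holds Prph itself, 4 had log2 fold changes above 0 and 3 below, and Prph was the 1 with an unadjusted p under 0.05, beside 2.75% of all tested genes. The summed level was 1219 to 1973 normalized counts in cKO libraries, against 1109 to 1455 in controls. Isl1 made up most of that sum, with 984, 1650 and 944 against 901, 1044 and 755. With each marker weighted alike, the mean log2 deviation was −0.37, 0.31 and −0.46 in cKO libraries a to c, against 0.58, 0.13 and −0.19 in controls, so the 2 measures differ in order and the groups overlap in both. The part of these neurons in the Prph values was not tested.

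Gap43 (ENSMUSG00000047261, chromosome 16, 42248442 to 42340651) had 26775, 23826 and 23430 normalized counts in cKO libraries, against 23419, 26007 and 24969 in controls. Library a of the cKO was again the highest, and the lowest, control library a, lay just below cKO library c. The log2 fold change was −0.01 (SE 0.06, interval −8.55% to 8.43%). Basp1 and Marcks, membrane proteins of the growth cone with a similar acylated, calmodulin-binding design, had log2 fold changes of −0.01 (SE 0.06) and 0.01 (SE 0.04). Dpysl3, a collapsin response mediator and the most abundant gene of that list, had 89236 normalized counts on average and a log2 fold change of −0.00 (SE 0.04).

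Elavl3 (ENSMUSG00000003410, chromosome 9, 22015005 to 22052023), which encodes HuC, had 24255, 22692 and 22163 normalized counts in cKO libraries, against 21368, 23193 and 22279 in controls. The highest library was cKO and the lowest control, with the other 4 mixed in between. Its log2 fold change was 0.05 (SE 0.05, interval −3.55% to 11.0%, p = 0.309 in limma, exact permutation p = 0.5). The relatives Elavl2 and Elavl4, also neuronal, gave −0.01 (SE 0.04) and 0.06 (SE 0.04), and Elavl1, which most cells express, gave 0.08 (SE 0.06). Rbfox3 (ENSMUSG00000025576, chromosome 11, 118489762 to 118911597) was the gene with the fewest reads, with 2574, 2202 and 2525 normalized counts in cKO libraries, against 2324, 2456 and 2611 in controls. The log2 fold change of Rbfox3 was −0.02 (SE 0.07, interval −11.2% to 10.2%), and those of Rbfox1 and Rbfox2 were −0.01 (SE 0.08) and 0.03 (SE 0.04).

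**Figure D3:**
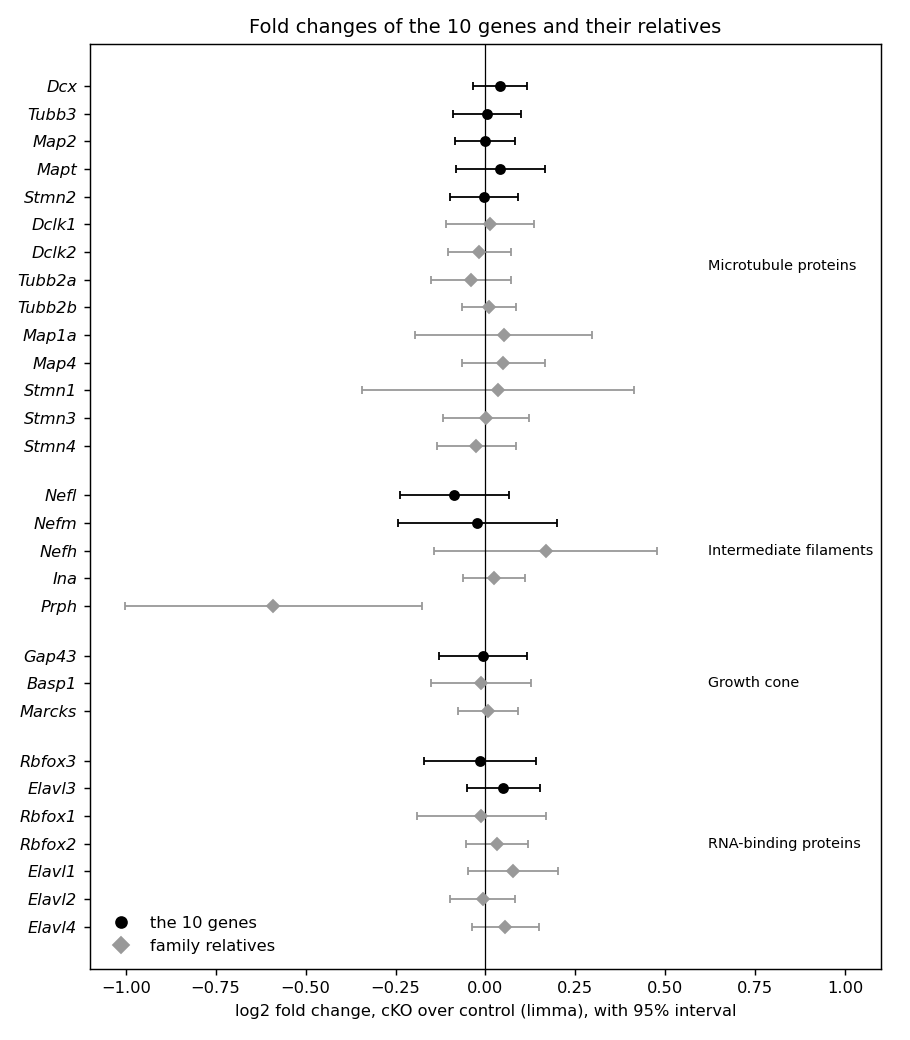
Log2 fold change, cKO over control (x axis), with the 95% interval from limma for the 10 genes (black circles) and 19 family relatives (grey diamonds), grouped by role. All intervals of the 10 genes cross 0, and that of Prph, centred at −0.59, does not.

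Counting error was smaller than the spread among libraries. With 2084 to 80335 counts per library, counting error alone gives a coefficient of variation of 0.379% for Mapt to 2.02% for Rbfox3, and the spread among libraries of 1 genotype was above the counting value for every gene in both groups, least so for Nefl in the controls. The median SE of the log2 fold change was 0.051 over the 10 genes, 0.107 over all tested genes and 0.056 over the 4278 genes with a mean of at least 2000 normalized counts. By mean normalized count, Mapt was number 12, Tubb3 14, Map2 15 and Dcx 17 of all 26852 genes, followed by Stmn2 at 39, Gap43 at 92, Elavl3 at 107, Nefl at 586, Nefm at 1253 and Rbfox3 at 3575.

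Divided by the length of all exons of a gene, the order of levels changed. Tubb3 led with 34246 ± 1355 normalized counts per kilobase (SD over the 6 libraries), followed by Gap43 with 16243 ± 933 and Mapt with 9183 ± 580. Stmn2 (6683), Dcx (4651), Map2 (3797), Elavl3 (3289), Nefl (2664) and Nefm (979) came next, and Rbfox3 was lowest with 421 ± 27.1. The ranges of neighbours in this order over the 6 libraries did not overlap. The order depends on which transcript is taken as the length, because the union of exons of Dcx, Mapt and Map2 is 12647, 7531 and 16449 bases and their principal coding transcripts have 1333, 1362 and 6258 bases. Per kilobase of the principal transcript, a choice added after the levels had been seen, Mapt (50776) and Dcx (44124) stood above Tubb3 (34246), whereas Nefl, Nefm and Rbfox3 stayed at the lower end. The reads were still those on all exons. Reads outside the principal transcript can therefore raise this value for genes with a longer exon union, such as Dcx and Mapt. For Tubb3 both lengths are 1868 bases. The second order is thus not one of levels of the principal transcripts. Under both lengths, the neurofilament genes and Rbfox3, which belong to later stages, were the 3 lowest.

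**Figure D4:**
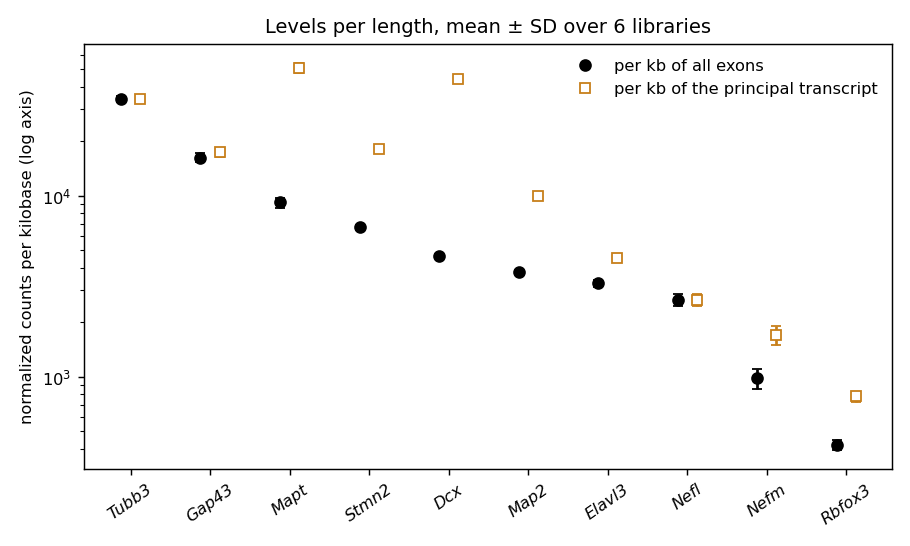
Mean normalized counts per kilobase (log axis) of the 10 genes over the 6 libraries, with SD bars, divided by the length of all exons (black circles) or of the principal coding transcript (orange squares). Tubb3 is highest by the first measure and below Mapt and Dcx by the second, and Rbfox3 is lowest by both, at 421 and 777. Both measures use the reads on all exons.

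The spread of the 10 genes over the libraries had a shape that did not follow genotype. In cKO library a, 9 of the 10 genes were above their own mean over the 6 libraries, the mean deviation over all 10 was 0.10 log2 units, that of Nefm was 0.28, and 6 genes had their highest value there. In cKO library b, 8 of the 10 were below their mean, with Tubb3, 0.09 above, as the main exception, and in control library b, 8 of the 10 were above it. Stmn2, Gap43, Nefm, Mapt and Elavl3 shared this pattern, with a Pearson r of 0.98, 0.92, 0.88, 0.80 and 0.76 between each gene and the mean of the other 9 over the 6 libraries. Dcx (0.06), Map2 (0.15) and Tubb3 (−0.11) did not, and Nefl (0.64) and Rbfox3 (0.47) were in between. These correlations describe 6 libraries that also share their scaling, and no test was made of them. The 5 genes of 17160 whose level over the libraries was most like the mean of the 10 were Lhfpl3 (r = 1.00), Rbm12b1 (0.99), Pgbd5 (0.99), Mapre2 (0.99), a microtubule plus-end binding protein, and Kcnt2 (0.99), and Lhfpl3 ran from 528 normalized counts in cKO library b to 799 in cKO library a.

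**Figure D5:**
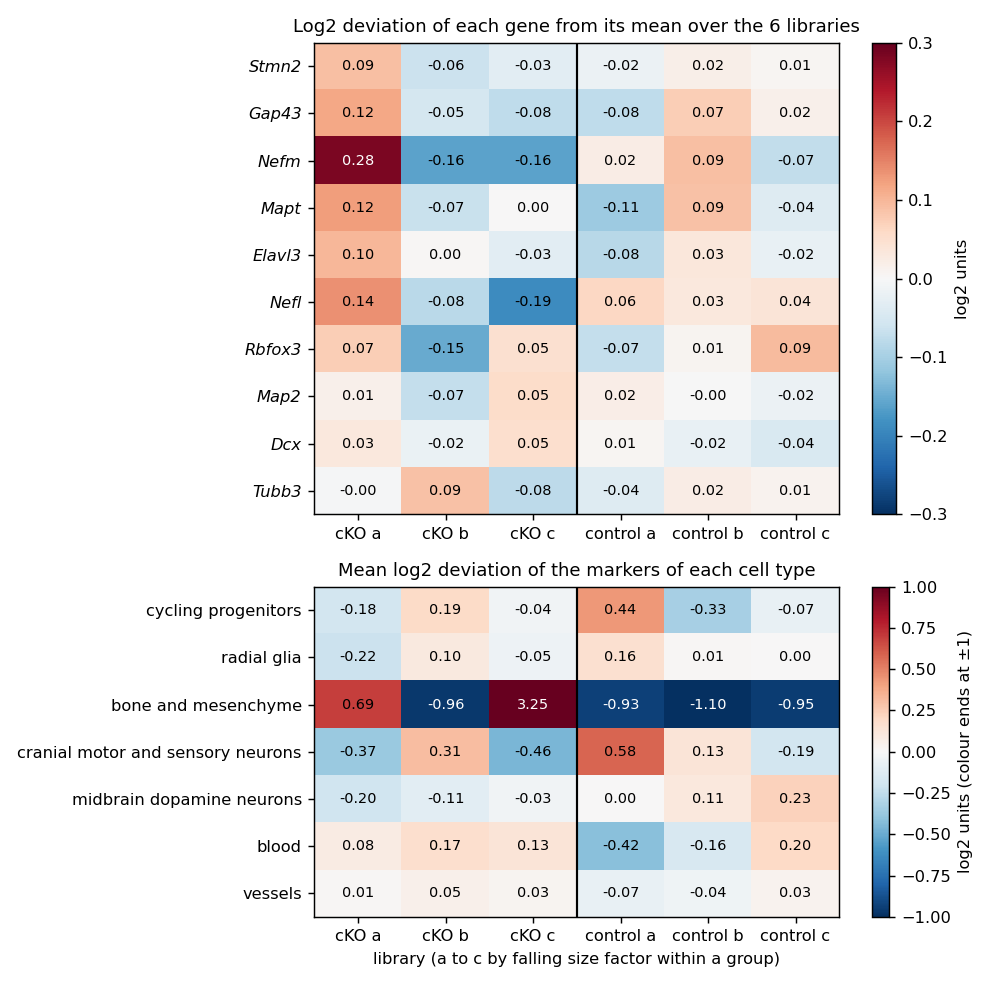
Log2 deviation of each of the 10 genes from its own mean over the 6 libraries (upper panel) and mean log2 deviation of the marker genes of 7 cell types (lower panel, colour ends at ±1), with libraries in columns and the line between cKO and control. Nefm in cKO library a, at 0.28, is the largest deviation of the upper panel, and bone and mesenchyme markers in cKO library c, at 3.25, are the largest of the lower panel.

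The marker lists of other cell types, read beside the 10 genes, had no gene with an adjusted p under 0.05, and at an unadjusted p under 0.05 their counts stand beside 2.75% of all tested genes. Radial glia markers had values below 0 in 8 of 10 cases, 4 of them with an unadjusted p under 0.05 (Hes5, Fabp7, Slc1a3 and Aldh1l1) and a median log2 fold change of −0.14. Midbrain dopamine neuron markers had values below 0 in 9 of 10 cases, 4 with an unadjusted p under 0.05 (Ddc, Pitx3, En1 and En2, the last at −0.46) and a median of −0.25. The groups did not overlap for 5 of these 10, beside 7.56% of all tested genes. En1 and En2 are also genes that the study itself reported as lower in the cKO. By in situ hybridization at E14.5 it saw no clear change in Th, Slc18a2 (Vmat2), Ddc (Aadc), Slc6a3 (Dat) or Pitx3. Blood markers had values above 0 in 5 of 6, with 2 at an unadjusted p under 0.05 (Hba-a1 and Hbb-bs), and bone and mesenchyme markers in 8 of the 9 tested, with 1 (Col3a1). Of the cycling progenitor and vessel markers, 0 of 10 and 0 of 7 had an unadjusted p under 0.05. The most abundant gene of each list, by mean normalized count, was Fabp7 (13159), Hbb-bs (4027), Rgs5 of vessels (3243), Nr4a2 of dopamine neurons (3157), Top2a of cycling cells (1599.9), Col1a1 of bone and mesenchyme (1113, which rests on 6097 in cKO library c, against 10.6 to 532 in the other 5 libraries) and Isl1 of motor and sensory neurons (1046). With the cycling marker level or the bone and mesenchyme marker level as a covariate, 0 of the 10 genes had an unadjusted p under 0.05. The second covariate moved several values, with a log2 fold change of 0.08 for Tubb3, −0.06 for Map2 and −0.10 for Rbfox3, and the part of the other lists in the values of the 10 genes was not tested.

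A wider list of 96 genes of the neuronal cytoskeleton, axonal transport, growth cone and neuronal RNA binding was read beside the 10 genes. Of the 94 that could be tested, 57 were higher and 37 lower in the cKO, the median log2 fold change was 0.01, 0 were higher and 2 lower at an unadjusted p under 0.05, and 2 had groups that did not overlap, beside 2.75% and 7.56% of all tested genes. The 2 were Prph, given above, and Map1s, a small member of the Map1 family, with 1512, 1561 and 1487 normalized counts in cKO libraries, against 1578, 1745 and 1850 in controls. For Map1s the log2 fold change was −0.17 (SE 0.07, unadjusted p = 0.0313, adjusted p = 1.00 in limma), and its unadjusted p was 0.05 or more in 5 of 15 alternatives, without cKO library a (0.0633) or c (0.0815), without control library b (0.0775) or c (0.135) and with the bone and mesenchyme covariate (0.171). Prph kept an unadjusted p under 0.05 in all 15. Thy1, a surface glycoprotein of mature neurons, did not pass the test and had the highest log2 fold change of the list, 0.56 (SE 0.40, unadjusted p = 0.183, adjusted p = 1.00 in limma), on 77.8, 37.0 and 37.9 normalized counts in cKO libraries, against 22.1, 44.2 and 37.8 in controls, so that again cKO library a alone stood above the rest. Kif5c, Sptan1, Nsg2 and Rbfox2, the most abundant genes for axonal transport, spectrins, other maturation genes and RNA binding, had log2 fold changes of 0.03, −0.00, −0.03 and 0.03.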

How the data were processed

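RNA-sequencing of 3 Lmx1b cKO and 3 control midbrain libraries was used. The submitters' processing notes name TopHat 1.0.14, Bowtie2 2.1.0, HTSeq 0.6.1p1, DESeq 1.10.1 and GRCm38.p4. The authors deposited 1 table with the mean coverage signal of each genotype, in read counts divided by size factors, and with their own ratio, log2 ratio and p-value columns, which were not used. Its 3 lines that name no gene hold 31.8% of the counts and were left out.

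Counts per library were recovered as the only whole numbers, among those searched, that give each printed mean of 15 significant digits. For means of 10000 or more, libraries were searched within a window around the mean (15% at a mean of 60000), none was searched above 100000, and the 10 genes kept a single answer with a window of 25%. Below 10000, all but low means were searched first within 50% of the mean. Other splits were tried only if this gave no answer. Among means of 10000 to 100000, some made-up values with no true answer also gave one, also at the means of Dcx, Tubb3, Map2 and Mapt. Counts of genes in that range, Stmn2, Gap43, Elavl3 and abundant relatives included, hold only if each library lies within the window. Size factors recomputed from these counts differed by −0.000974% to 0.000961%. The recovered counts were tested in limma 3.58.1 (R 4.3.3) with voom weights, the size factors, genotype as the term, a minimum mean of 10, 95% intervals and Benjamini-Hochberg adjustment. The test was run on simulated data first. Single values were compared by exact permutation, two-sided, whose smallest p is 0.1 with 3 against 3. Labels do not tie litters to libraries.

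Positions and lengths are from GENCODE M21 on GRCm38. Exon union lengths were used for levels per kilobase. The 10 genes and the lists were chosen with earlier results of these data known. Genes named are the 10, their family relatives, list genes with p under 0.05, the most abundant gene of each list, the 5 most like the 10, and Lmx1b. Thy1 was named after its values were seen. Radial glia, cycling, bone and mesenchyme, cranial motor and sensory, dopamine, blood and vessel lists served to check the tissue. Alternatives were limma-trend, minimum means of 50 and 100 or none, other scalings, each library left out, 2 covariates, and pseudocounts of 1 and 10 or centring for the deposited means. The tools were matplotlib 3.10.9, numba 0.67.0, pandas 2.3.3, scipy 1.17.1, numpy 2.4.6 and Python 3.11.15.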

Additional observations from a re-analysis of the deposited data

How the results depend on the processing

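Over 15 alternatives, 127 of the 150 values of the 10 genes kept their direction and their side of the threshold (unadjusted p under 0.05 in limma), 21 changed direction and 2 passed the threshold, and values stayed between −0.18 and 0.10. No changed direction came with an unadjusted p under 0.05. Map2 became 0.0023 with upper-quartile scaling and Tubb3 −0.0028 with total counts, and with the bone and mesenchyme level as a covariate Nefm became 0.0086 and Gap43 0.0193. The same covariate gave 0.0827 for Tubb3, −0.0578 for Map2, −0.0961 for Rbfox3, −0.0201 for Nefl, 0.0091 for Dcx, 0.0243 for Mapt, −0.0091 for Stmn2 and 0.0745 for Elavl3, none with an unadjusted p under 0.05. With each library left out, log2 fold changes ran from −0.0374 to 0.0448 for Tubb3, −0.0284 to 0.0334 for Map2, −0.0118 to 0.0960 for Mapt, −0.0508 to 0.0275 for Stmn2, −0.0596 to 0.0541 for Rbfox3, −0.1743 to 0.0525 for Nefm, −0.0676 to 0.0296 for Gap43, −0.1785 to −0.0149 for Nefl (without cKO library a and c), 0.0108 to 0.0792 for Elavl3 and 0.0262 to 0.0613 for Dcx. The number of the 10 genes with p under 0.05 ran from 0 to 2, the 2 being Nefl and Nefm without cKO library a, and that of the wider list from 1 to 4, with 4 without control library a and 1 without cKO library a or c or control library c. With the bone and mesenchyme covariate it was 1. Prph was among them in every fit and Map1s in all but 5 of the 15 alternatives. Over all tested genes, 472 had p under 0.05, 307 with a minimum mean of 100 (fewer genes tested) and 974 with no filter (more genes tested), and 335 to 651 with a library left out. An adjusted p under 0.05 was reached by 0 genes, by 0 to 4 with a library left out (4 without control library a) and by 1 with the cycling level as a covariate, and the cause was not tested. Pseudocounts or centring changed no ratio of the deposited means in direction. No paired analysis was possible because the deposited header numbers the libraries of both genotypes alike, from N1 to N3, but the recovered libraries cannot be tied to these numbers, and no source used here says that a shared number marks a litter. Counting error was below the spread among libraries for the 10 genes in both groups, though barely so for Nefl in the controls (1.05% against 1.06%), and it was not compared for Prph and Thy1, which have few reads. The values average over all cells of the midbrain.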
